A study of Homo sapiens and Mus musculus with 54 samples.

Results

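In HepG2 cells, 7256 of the 62761 peaks of the liver transcription factor C/EBPα (11.6%) lay in H3K27ac chromatin and had no peak of the aryl hydrocarbon receptor (AhR). They were chosen by position alone. A C/EBPα peak was taken when it shared at least 1 bp with a region of the H3K27ac list of cells without inhibitor and no base with any peak of the AhR list. The other C/EBPα peaks fall into 23332 with both AhR and H3K27ac, 8101 with AhR only and 24072 with neither. The AhR and H3K27ac overlaps that define these classes are the rule itself and not findings.

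The study profiled AhR, C/EBPα and the histone mark H3K27ac by ChIP-seq, with 30 HepG2 libraries and 24 mouse libraries. HepG2 is a human liver tumour line that is known to carry extra copies of several chromosomes, and copy number was not measured here. All HepG2 cells were taken at day 12, either deprived of vitamin B2 (B2_minus) or kept as controls (Cont), with no genetic change named in the labels. AhR and C/EBPα ChIP had 2 B2_minus and 2 Cont libraries each, and H3K27ac ChIP had 5 B2_minus and 5 Cont libraries. Cells for AhR and C/EBPα were crosslinked with DSG and formaldehyde, and cells for H3K27ac with formaldehyde alone. A further H3K27ac experiment had 2 B2_minus libraries with an AhR inhibitor (AhRinh), 2 B2_minus libraries with the vehicle DMSO and 2 Cont libraries with DMSO. The deposited list named for that experiment is called the inhibitor list. Inputs were sequenced from 2 Cont samples for AhR, 2 Cont samples for C/EBPα and 2 B2_minus samples titled for both factors.

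Each list gives 1 set of positions for all libraries together. No list gives a value per library, so the depth is unknown, B2_minus cannot be compared with Cont, and the share of each condition in a peak is not known. A site without an AhR peak is a site absent from the AhR list, which does not show that AhR was absent there. Peaks of 1 list are not replicates, so no difference between classes was tested. Wilson intervals at 95% cover counting error only, and the spread over chromosomes 1 to 22 and X is given for merge numbers, the inhibitor list and gene bodies.

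C/EBPα is a leucine zipper protein that binds DNA as a dimer at a palindrome of the form TTGCGCAA or at looser versions of it. It sustains genes of glucose, lipid and nitrogen metabolism in hepatocytes and has parallel roles in fat cells and myeloid blood cells. AhR is a receptor of the basic helix-loop-helix class that enters the nucleus after binding a ligand, pairs with ARNT and binds sites with the core GCGTG. H3K27ac is laid down by the acetyltransferases p300 and CBP at active enhancers and promoters.

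Sequences were read from the RefSeq promoter table of GRCh38.p14, which holds the 250 bases before and 50 bases after each annotated start, since no genome was used here. The peaks of the class touched 71 of 34943 such windows, and 10 of the 71 belonged to a protein-coding gene. The examples below, chosen after their values were seen, are the parts of such peaks that lie before the start, 5′ to 3′ on the strand of the gene. Capitals mark TTGCNNAA, the loose C/EBP form, TGANTCA, the AP-1 form, or GCGTG, the AhR core, on either strand. ART3 (plus strand, chr4:76053893-76054107), an ADP-ribosyltransferase family gene, holds a whole peak of merge number 3 with a C/EBP form and an AP-1 form.
ART3: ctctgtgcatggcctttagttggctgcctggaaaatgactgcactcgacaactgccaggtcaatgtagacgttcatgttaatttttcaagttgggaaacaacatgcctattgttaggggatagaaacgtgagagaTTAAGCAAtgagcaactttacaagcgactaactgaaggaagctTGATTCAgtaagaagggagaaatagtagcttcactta
TNRC6C: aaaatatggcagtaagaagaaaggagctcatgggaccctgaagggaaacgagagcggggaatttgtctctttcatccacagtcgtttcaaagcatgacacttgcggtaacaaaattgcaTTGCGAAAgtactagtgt
LINC02473: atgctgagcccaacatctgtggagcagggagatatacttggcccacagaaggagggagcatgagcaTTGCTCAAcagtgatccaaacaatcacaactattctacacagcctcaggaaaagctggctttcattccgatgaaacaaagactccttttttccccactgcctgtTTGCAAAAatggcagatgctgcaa
LINC02991: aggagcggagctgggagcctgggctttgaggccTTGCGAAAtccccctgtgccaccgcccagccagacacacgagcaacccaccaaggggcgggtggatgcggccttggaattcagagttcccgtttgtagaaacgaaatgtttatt
TNRC6C (plus strand, chr17:77957420-77957556) encodes a protein of the microRNA silencing complex, and its stretch holds 1 C/EBP form close to the start. The noncoding genes LINC02473 (plus strand, chr4:24665090-24665283) and LINC02991 (plus strand, chr2:239578051-239578197) show the same form 2 times and 1 time.

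The next stretches show members of the class whose letters hold no C/EBP form. PELO-AS1 (minus strand, chr5:52800000-52800215) is an antisense gene whose stretch holds the AhR core at 2 places, and the nearest AhR peak lay 376 bp from that C/EBPα peak. COL10A1 (minus strand, chr6:116217145-116217364), a collagen gene, and MAST3 (plus strand, chr19:18109926-18110058), a kinase gene, hold none of the motifs searched, and both peaks have a merge number of 3.
PELO-AS1: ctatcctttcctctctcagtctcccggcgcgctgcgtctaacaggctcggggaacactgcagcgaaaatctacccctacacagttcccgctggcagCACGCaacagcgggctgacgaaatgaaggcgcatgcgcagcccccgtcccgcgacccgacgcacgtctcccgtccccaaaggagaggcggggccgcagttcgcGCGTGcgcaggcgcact
COL10A1: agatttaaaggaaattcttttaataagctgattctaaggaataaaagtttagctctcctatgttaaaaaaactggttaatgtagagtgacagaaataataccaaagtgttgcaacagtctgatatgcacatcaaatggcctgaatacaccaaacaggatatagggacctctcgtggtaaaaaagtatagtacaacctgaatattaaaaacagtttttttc
MAST3: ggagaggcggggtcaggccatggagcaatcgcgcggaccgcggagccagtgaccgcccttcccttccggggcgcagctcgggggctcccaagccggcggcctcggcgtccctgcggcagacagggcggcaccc

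Over whole windows and both strands, TTGCNNAA was present in 26.8% of the 71 windows with such a peak (95% Wilson interval 17.9 to 38.1), in 31.5% of 181 windows with a C/EBPα peak with AhR and H3K27ac (25.2 to 38.6), and in 10.5% of all windows. The strict palindrome TTGCGCAA, which is also a TTGCNNAA, was in none of the 71 (upper Wilson bound 5.13%), in 0.552% of the 181 and in 0.152% of all. For the loose C/EBP form the intervals of these 2 classes overlap, and the strict form was too rare to compare at this number. The loose form was in 21.4% of 702 windows with AhR only (18.5 to 24.55). It was in 19.65% of 1980 windows with neither (17.96 to 21.45). The strict form was in 1.14% and 1.77% of these. The AhR core GCGTG was in 32.4% of the 71 windows (22.7 to 43.9), in 19.3% of the 181 (14.2 to 25.7) and in 36.5% of all, so the windows with a C/EBPα peak that lacked AhR held it in the larger share of the 2 classes, with intervals that overlap. The median GC content of the windows ran the same way, at 52.3% without AhR, 47.7% with AhR and 58.7% over all. Windows of protein-coding genes were 10 of the 71, 23 of the 181 and 22049 of all 34943. They were 545 of the 702 with AhR only and 1621 of the 1980 with neither. The part of GC content and of gene type in the counts was not tested. TGANTCA, bound by AP-1 factors, was in 9.86% of the 71 windows (4.86 to 19.0), in 24.9% of the 181 (19.1 to 31.6) and in 7.72% of all. TGTTTAC, the forkhead form bound by FOXA proteins, was in 5.63%, 12.7% and 3.42% in the same order. CAAAGTCCA, an HNF4 form, was in 1.41%, 4.42% and 0.383%. With AhR only and with neither, GCGTG was in 39.7% and 48.7% of windows and TGANTCA in 12.7% and 4.04%. In the same 2 classes TGTTTAC was in 6.84% and 2.475%, and CAAAGTCCA in 2.28% and 0.1515%. A match describes the letters and not a bound site, and few peaks of the class touch a window, so these shares do not describe the class as a whole.

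The peaks without AhR were set first against their own rule. Of 30588 C/EBPα peaks with H3K27ac, 23.7% (23.3 to 24.2) had no AhR. The nearest AhR peak lay at a median of 4941 bp, with quartiles of 932 and 15898 bp. It was under 100 bp away for 403 of the peaks (5.55%), under 1000 bp for 1884 (26.0%) and under 10000 bp for 4745 (65.4%), and 571 (7.87%) had none within 50 kb. With merged peaks only in all 3 lists, the share without AhR was 42.15% and the median distance 14601 bp. That setting also shortens the AhR list, so C/EBPα peaks that overlap only a dropped AhR peak can enter the class by construction. An AhR peak centre lay within 10 kb of 65.0% of the class, against 51.1% of peaks with neither and 77.2% of all C/EBPα peaks, a share that includes the peaks that overlap AhR. Just inside the rule, 88 peaks had an AhR peak under 20 bp away and 155 shared at most 20 bp with their H3K27ac region. Just outside it, 63 peaks with AhR shared at most 20 bp with the AhR peak, and 160 peaks with neither had an H3K27ac region under 20 bp away. On the C/EBPα side the surroundings were close to those of peaks with AhR. Another C/EBPα peak centre lay within 10 kb in 67.0% of the class (65.9 to 68.0), against 68.5% with AhR (67.9 to 69.1), and the mean number of H3K27ac regions within 10 kb was 4.14 against 3.94.

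The last number in a peak name was taken as the count of peaks that HOMER joined to make the listed one (the merge number). It is not a measure of signal, and the files do not say which peak sets were joined. Among C/EBPα peaks with H3K27ac and no AhR, 44.8% had a merge number of 1, 26.6% of 2 and 28.6% of 3. With AhR and H3K27ac these shares were 21.6%, 16.8% and 61.5%, with AhR only 24.6%, 21.0% and 54.4%, and with neither 62.7%, 22.2% and 15.1%. At merge numbers 1 and 3 the class without AhR thus stood between the sites with AhR and the sites with neither mark, and at 2 it had the highest share of the 4 classes.

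**Figure D1:**
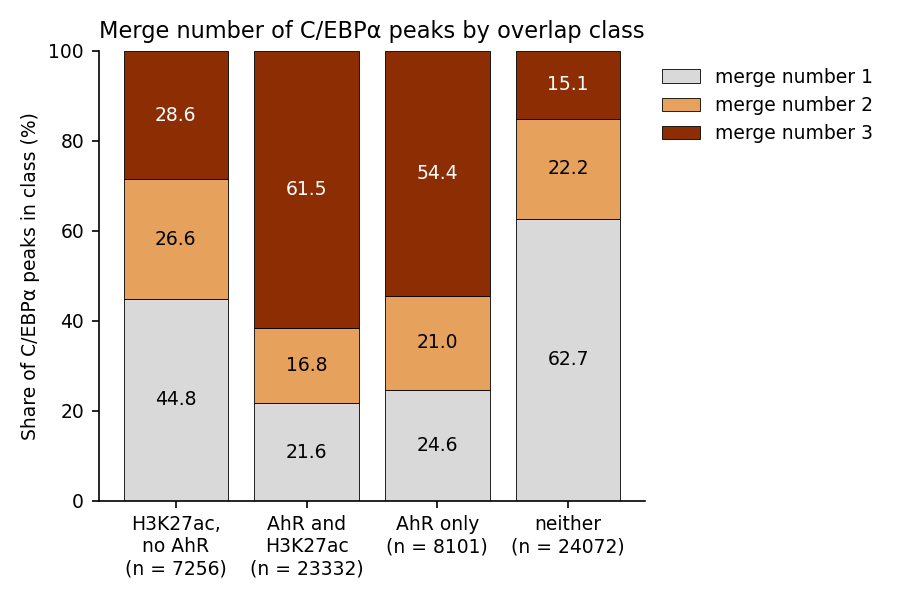
Share of C/EBPα peaks in each overlap class (vertical axis, percent) with merge number 1, 2 or 3, for the 7256 peaks with H3K27ac and no AhR at the left and the other 3 classes beside them. Merge number 3 takes 28.6% of the peaks with H3K27ac and no AhR, against 61.5% of those with AhR and H3K27ac.

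Entries of merge number 2 or more made up 55.2% of the class (54.0 to 56.3), against 78.4% with AhR and H3K27ac (77.8 to 78.9) and 59.6% of all C/EBPα peaks. On chromosomes 1 to 22 and X the share ran from 44.97% to 61.45% without AhR and from 74.6% to 81.9% with AhR. The share without AhR minus that with AhR was negative on 23 of these 23, at -23.75 ± 4.52 percentage points (SD over chromosomes). On chromosome Y it was 65.0% without AhR and 90.0% with AhR. Read the other way, C/EBPα peaks with H3K27ac lacked AhR in 39.2% of cases at merge number 1 (38.1 to 40.2), in 33.0% at 2 (31.8 to 34.2) and in 12.6% at 3 (12.1 to 13.1). The class still held 2074 peaks of merge number 3. Peak width hardly moved between classes, with medians of 232 bp without AhR, 235 bp with AhR and H3K27ac, 233 bp with AhR only and 225 bp with neither. How much of the lack of AhR goes with the number of peaks merged and how much with AhR itself cannot be told apart in these lists.

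The H3K27ac regions under the peaks numbered 7378. Of these, 7067 held no AhR peak anywhere, and 311 (4.22%) held a C/EBPα peak without AhR and an AhR peak elsewhere in the same region. Regions with no AhR peak had a median width of 287 bp and 78.2% of them were merged. The 311 regions with an AhR peak elsewhere were wider, at 376 bp, and 95.2% of them were merged. The 23475 regions with a C/EBPα peak, an AhR peak and no peak of the class had a median width of 285 bp, and 92.8% were merged, against 78.2% of all 106666 regions. Acetylated regions that held C/EBPα without AhR were therefore as often merged as H3K27ac regions in general. The C/EBPα centre lay a median of 49.5 bp from the centre of its H3K27ac region without AhR and 36.5 bp with AhR, and the whole C/EBPα peak lay inside the region in 33.2% of cases (32.1 to 34.3) against 37.9% (37.3 to 38.6).

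A region of the inhibitor list overlapped 88.2% of the C/EBPα peaks without AhR (87.4 to 88.9), against 93.8% of those with AhR and H3K27ac (93.5 to 94.1). Over all C/EBPα peaks it was 45.7%, a share that includes peaks without H3K27ac. Chromosome Y, with 20 peaks of the class, ran the other way, at 100.0% against 90.0%. The difference was negative on each of the other 23 chromosomes, at -7.11 ± 3.23 points (SD over chromosomes), and on these the share without AhR ran from 77.5% on chromosome 21 to 96.7% on chromosome 20. It was also seen at equal merge number, with 87.4%, 88.1% and 89.6% without AhR at 1, 2 and 3, against 93.6%, 92.6% and 94.2% with AhR. A smaller share of the sites without AhR than of those with AhR and H3K27ac was thus listed in the inhibitor experiment. This held on each of these 23 chromosomes and at each C/EBPα merge number. The H3K27ac regions were not matched for merging. Of those with a peak of the class 78.9% were merged, against 92.8% with C/EBPα, AhR and no such peak. The 2 H3K27ac lists have most of their coordinates in common. Of the regions of the class 88.3% were at identical positions, close to the 87.4% of all H3K27ac regions. Regions with C/EBPα, AhR and no peak of the class stood higher, at 93.8%. The inhibitor list does not separate AhRinh from DMSO libraries, so these shares do not measure the effect of the inhibitor.

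The C/EBPα peaks without AhR were almost all more than 3 kb from the protein-coding starts used here. These starts cover 15813 of the 19974 genes, and noncoding starts were left out. Within 3 kb of a protein-coding start lay 75 of them (1.03%), against 173 with AhR and H3K27ac (0.742%), while the share was 30.4% with AhR only, 19.2% with neither and 11.7% of all C/EBPα peaks. The H3K27ac lists themselves have a step at this distance. The list used by the rule held 226 regions with a centre from 2500 to 3000 bp of a start and 1467 from 3000 to 3500 bp, a ratio of 6.49, where the ratio was 0.949 for AhR and 0.893 for C/EBPα. The peaks of the class followed it, with 17 and 85 in the same distances. Each peak of the class overlaps such a region, so by construction its distance from starts follows that of the list. What made the step was not tested.

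**Figure D2:**
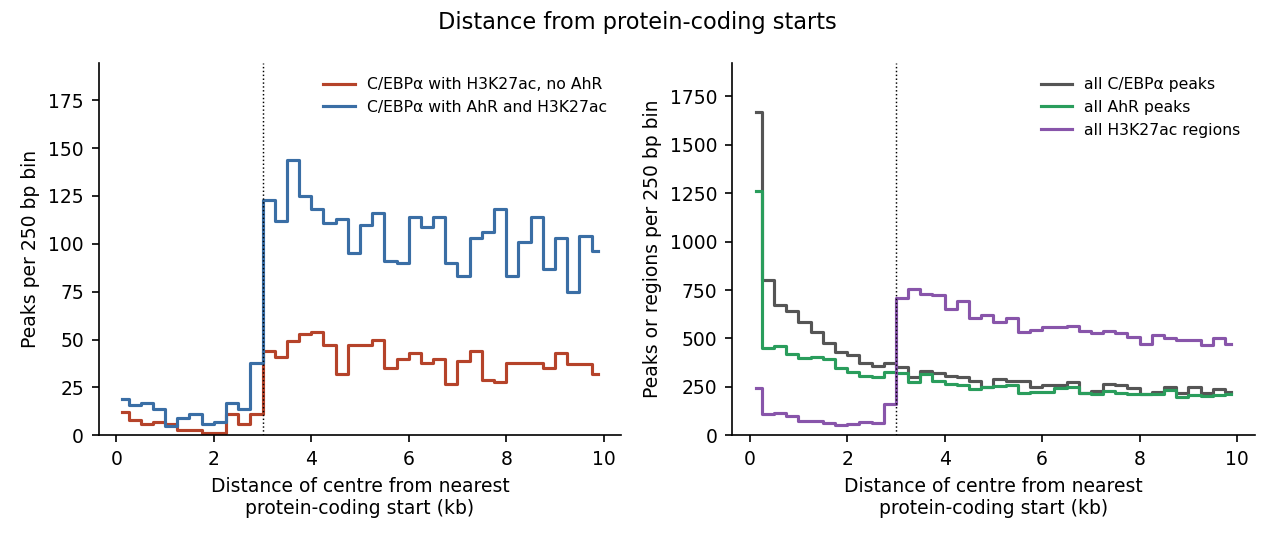
Number of peaks or regions per 250 bp bin (vertical axes) by distance of the centre from the nearest protein-coding start in kb (horizontal axes), for C/EBPα peaks with H3K27ac without and with AhR at the left and for the 3 whole lists at the right. The dotted line marks 3 kb, where the H3K27ac list steps from 226 regions in the 500 bp before it to 1467 in the 500 bp after it.

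Over all peaks of each class, sites without AhR lay somewhat nearer to starts than sites with AhR and H3K27ac. The spread of this difference over chromosomes was not worked out. The median distance from a start was 39627 bp without AhR and 50009 bp with AhR and H3K27ac. From 3 to 10 kb lay 15.5% (14.7 to 16.4) against 12.6% (12.2 to 13.1), and over 50 kb lay 43.8% (42.7 to 45.0) against 50.0% (49.4 to 50.7). A smaller share lay inside a gene body, 47.7% (46.6 to 48.9) against 54.5% with AhR and H3K27ac (53.8 to 55.1). This was so on 23 of 23 chromosomes, Y left out, with a mean difference of -7.47 ± 2.99 points (SD over chromosomes). Exons and introns were not annotated here.

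Chromosomes differed in how many of their acetylated C/EBPα peaks lacked AhR. The share was highest on chromosome 20 at 33.4%, then 30.9% on 19, 29.1% on 14, 28.4% on both 17 and 22, 28.3% on 16 and 28.1% on 21. It was lowest on chromosome 18 at 17.7%, on 4 at 18.2% and on X at 18.9%. Chromosomes with many such peaks also had many H3K27ac regions for each AhR peak, with 3.003 on 20 and 2.48 on 16, against 1.63 on 18, 1.53 on 4 and 1.43 on X. Both measures share the same lists, and this was not tested further. Chromosome Y stood apart with 20 of only 40 peaks.

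**Figure D3:**
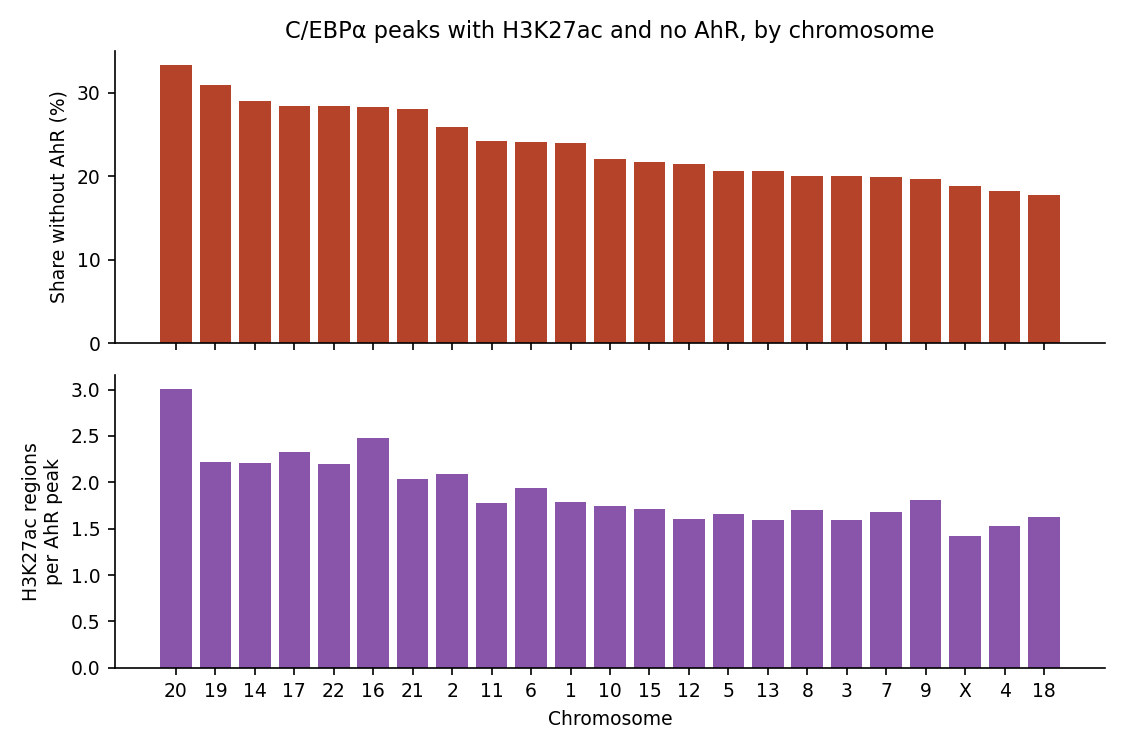
Upper axis, share of C/EBPα peaks with H3K27ac that had no AhR peak (percent) on chromosomes 1 to 22 and X, in falling order; lower axis, H3K27ac regions per AhR peak on the same chromosomes. The share runs from 33.4% on chromosome 20 to 17.7% on chromosome 18, and chromosome 20 also has the most H3K27ac regions per AhR peak, 3.003.

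Each peak was assigned to the nearest protein-coding gene body within 50 kb, which names a neighbour and not a regulated gene. Of the 7256 peaks, 6105 were assigned, to 4046 of 19974 genes (20.3%). A C/EBPα peak with AhR and H3K27ac was assigned to 36.5% of genes, an AhR peak to 60.3% and an H3K27ac region to 68.7%. Of the 4046 genes, 3562 (88.0%) had an AhR peak elsewhere, with a median of 4, and 484 (11.96%) had none. No C/EBPα peak with AhR and H3K27ac was assigned to 1207 of them (29.8%). Sites without AhR were thus mostly additional sites at genes that also had AhR. Most genes had 1 such peak (2775), 813 had 2 and 458 had 3 or more (2.29% of all genes). Genes with such a peak had a median length of 55611 bp, against 56493 bp for genes with a C/EBPα peak with AhR and H3K27ac and 24171 bp for all genes.

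The genes with the most peaks were long. SNX29, a sorting nexin gene of 597554 bp on chromosome 16 (11976734 to 12574287), had 14 peaks without AhR, 12 of them inside the gene and 9 of merge number 3, beside 24 with AhR and H3K27ac and 36 AhR peaks. PARN, the poly(A)-specific ribonuclease, followed with 11 beside 15, and its peaks include 4 in a row at chr16:14523714-14529375 that lay 12357 bp or more from AhR. WWOX, an oxidoreductase gene at a fragile site, had 10 beside 32, and GSE1 had 10 beside 22. These genes held many peaks of every kind. ZMIZ1, a transcriptional coregulator, had 9, beside 9 with AhR and H3K27ac. ASAP2, ASPRV1, CACNB4, IQSEC1, PARD3 and TTC6 had 8 each, and peaks without AhR outnumbered those with AhR and H3K27ac in ASPRV1 (8 against 5) and CACNB4, a calcium channel subunit gene (8 against 6).

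**Figure D4:**
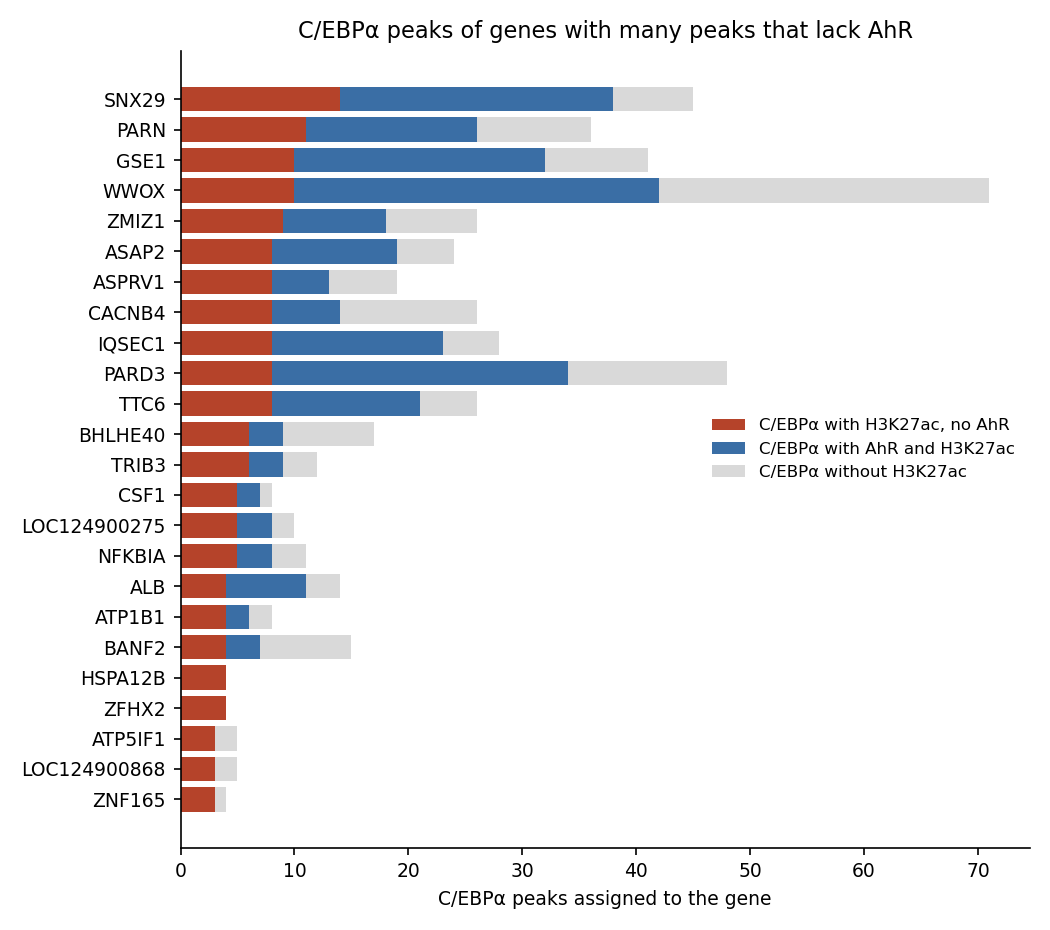
C/EBPα peaks assigned to a gene (horizontal axis, number of peaks), divided into those with H3K27ac and no AhR, those with AhR and H3K27ac, and those without H3K27ac. From the top are 11 of the 12 genes with the most peaks without AhR and the 8 such genes of up to 50 kb. Below them are the 5 genes with no AhR peak assigned that had at least 3. SNX29 has 14 without AhR and 24 with AhR, and HSPA12B has 4 and none.

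Among genes of up to 50 kb, BHLHE40 and TRIB3 had the most. BHLHE40, a repressor of the circadian clock circuit, had 6 peaks without AhR and 3 with AhR and H3K27ac, all 6 outside the gene, and 1 of them had merge number 3, at chr3:4976179-4976391. TRIB3, a pseudokinase gene induced by cell stress, also had 6 against 3. Its peaks of merge number 3 lay 11501 and 6998 bp from the gene, at chr20:369048-369259 and chr20:373520-373762, and 2 others lay inside it. NFKBIA, which encodes the NF-κB inhibitor IκBα, had 5 against 3. The peak nearest to it, chr14:35400830-35401045, had merge number 3 and lay 468 bp from the gene body. CSF1, a macrophage growth factor gene, had 5 against 2. Of these 5, 3 had merge number 3, and 1 of the others, chr1:109934664-109934900, lay only 10 bp from an AhR peak, just inside the rule. LOC124900275 had 5 against 3. ALB, the albumin gene, had 4 against 7 and 24 AhR peaks, and the 4 lay 70 to 840 bp from an AhR peak. ATP1B1, a sodium pump subunit gene, had 4 against 2 and BANF2 had 4 against 3. All 4 of BANF2 had merge number 3. Further genes tied at 4 and were ordered by symbol.

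Of the 484 genes with a peak of the class and no AhR peak assigned, 5 had 3 or more. HSPA12B, a member of the HSP70 family on chromosome 20 (3732685 to 3753111), had 4 C/EBPα peaks, and all of them were in H3K27ac and without AhR. They lay inside the gene within 2358 bp, from chr20:3736551-3736773 to chr20:3738683-3738908, and 2 had merge number 3. The nearest AhR peak lay 59234 bp or more away. ZFHX2, a homeobox gene on chromosome 14, also had 4 of 4, between 35275 and 37932 bp from AhR, with merge numbers of 1 or 2. ATP5IF1, an inhibitor of the mitochondrial ATP synthase, had 3, all of merge number 3, at 5643 to 9171 bp from the gene and 1917 to 5519 bp from AhR peaks that lay nearer to another gene. LOC124900868 and ZNF165 had 3 each. The remaining places of the naming rule fell among 32 genes tied at 2 and went by symbol to ACE, the angiotensin converting enzyme, ACSBG2 and AGAP3.

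Runs of neighbouring C/EBPα peaks of the class, not interrupted by an AhR peak or by a C/EBPα peak with AhR and H3K27ac, were counted along each chromosome. There were 847 runs of 2 or more, which held 1854 peaks (25.6%), and 24 runs of 4 or more. How many runs the numbers of peaks alone would give was not worked out. These counts therefore do not show that the class is clustered. A run of 5 peaks spanned 54686 bp at NGDN and ZFHX2 on chromosome 14 (23493401 to 23548086). Chromosome Y held runs of 6 and 5, and no genes of that chromosome were used here.

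The genes of the C/EBP family and of AhR itself were looked at whatever their values. CEBPA, which encodes the factor, had 3 peaks without AhR and 3 with AhR and H3K27ac, beside 8 AhR peaks. The 3 lay outside the gene, and the one with merge number 3, at chr19:33292629-33292882, was 7052 bp from it. CEBPB, the paralog induced in the acute phase, had the same 3 and 3, of which chr20:50208116-50208390 and chr20:50219236-50219463 had merge number 3. CEBPE, the granulocyte family member, had 2 C/EBPα peaks, both of the class, and no AhR peak assigned, with chr14:23113728-23113949 at merge number 3. The nearest AhR peak lay 6311 and 7249 bp from these 2 and was assigned to another gene. CEBPD, CEBPG, CEBPZ and DDIT3 had none, so the family had 3 of 7 genes (42.9%) with 8 peaks of the class and 8 with AhR and H3K27ac. None of the 7 had a peak of the class within 1 kb of the gene body. AHR had 1 peak of the class, inside the gene at chr7:17308391-17308612 and 1023 bp from an AhR peak, and CYP1A1, the P450 gene classically induced through AhR, had none against 2 with AhR and H3K27ac.

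The other lists of genes were read in the same way, and 82 of 264 listed genes (31.1%) had a peak of the class beside 20.3% of all genes. The median number per gene was 0 in each of the 18 lists and over all genes. Of the 82, CEBPE and CFB alone had no AhR peak assigned. CFB, the complement factor B gene, had 1 C/EBPα peak inside it at chr6:31949124-31949412. The AhR peak nearest to that site lay 3245 bp away and was assigned to another gene. Listed genes with sites that lacked AhR thus nearly always had AhR at other sites. AhR peaks were also common at listed genes whether or not they had a peak of the class. By list they were at from 3 of 7 CEBP family genes to 21 of 21 hepatocyte transcription factors, beside 60.3% of all genes.

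**Figure D5:**
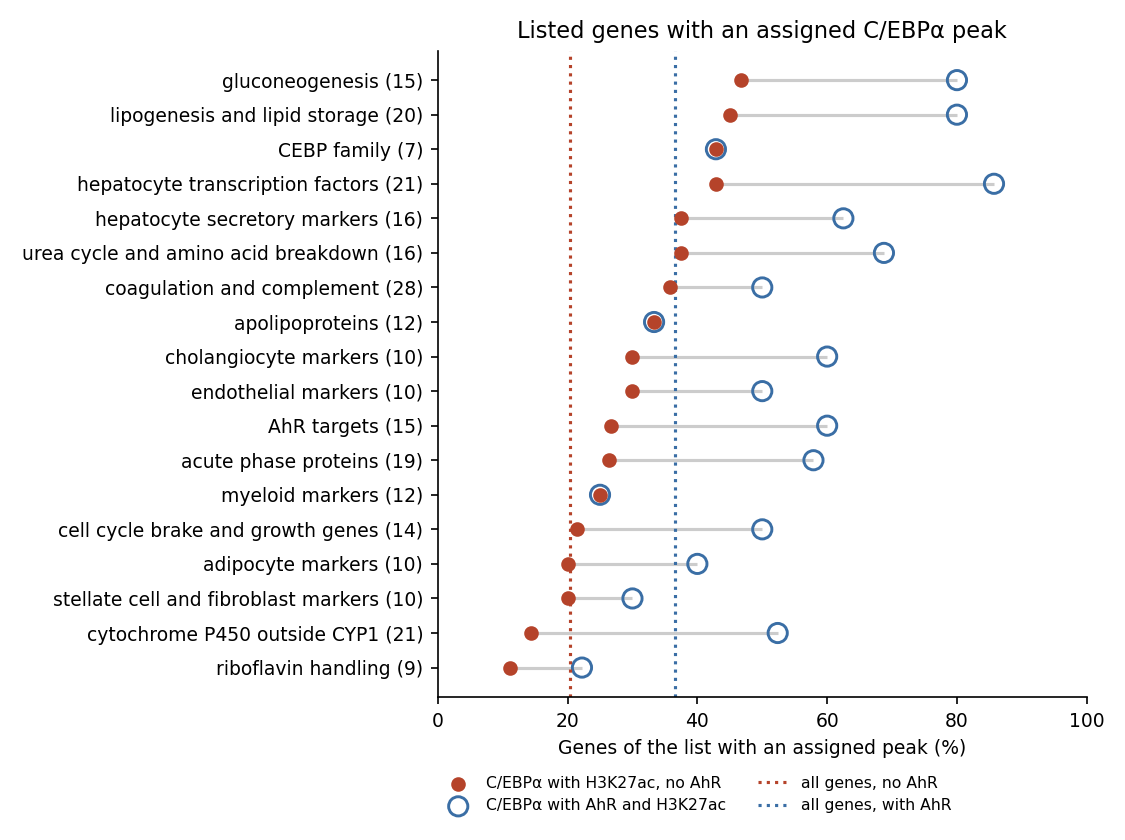
Percent of the genes of each list (horizontal axis, number of genes in brackets) with an assigned C/EBPα peak with H3K27ac and no AhR (filled) and with AhR and H3K27ac (open ring); dotted lines give the same over all 19974 genes, 20.3% and 36.5%. Gluconeogenesis has 46.7% without AhR, and a ring round a filled point, as in the CEBP family, means equal shares.

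Hepatocyte transcription factors held 18 peaks of the class, beside 67 with AhR and H3K27ac. Of 21 hepatocyte transcription factors 9 (42.9%) had a peak without AhR and 18 had one with AhR and H3K27ac. HNF4A, the nuclear receptor that maintains hepatocyte genes, had 5 of each, 4 of the 5 without AhR inside the gene. RXRA, the shared partner of many nuclear receptors, had 3 against 2, and NR5A2, which controls bile acid genes, had 2 against 2, with chr1:200128185-200128424 of merge number 3 inside it. FOXA2, a pioneer factor gene, had 1 of merge number 3 and none with AhR and H3K27ac, though 2 with AhR only and 8 AhR peaks. Of 16 secretory markers 6 had a peak without AhR, led by ALB, and 15 of the 16 had an H3K27ac region. ITIH4, an inhibitor family plasma protein gene, had its only acetylated C/EBPα peak in the class, at chr3:52811814-52812052, 910 bp from the gene.

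Metabolic genes, for which C/EBPα is best known in liver, had such sites beside sites with AhR. Gluconeogenesis genes had them in 7 of 15 cases (46.7%), against 12 of 15 with AhR and H3K27ac. FBP1, fructose-1,6-bisphosphatase, had 3 against 2, and PCK1, the cytosolic PEP carboxykinase, also had 3 against 2. PPARGC1A, a coactivator that drives the fasting response, had 2 against 11, both inside the gene and of merge number 3, as at chr4:23861969-23862197. Lipogenesis and lipid storage genes had them in 9 of 20 (45.0%), against 16 with AhR and H3K27ac. LPIN1, a phosphatidate phosphatase, had 4 against 6, and ACLY, which makes cytosolic acetyl-CoA, had 3 against 1, with chr17:41895029-41895282 of merge number 3 inside it. MLXIPL, the carbohydrate-responsive factor, had 3 against 5, and PLIN2, a lipid droplet coat protein, 2 against 6. Urea cycle and amino acid genes had them in 6 of 16, among them CPS1, the entry enzyme of the urea cycle, at 1 against 5.

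Genes of plasma proteins had them in 26.3% to 35.7% of cases. Apolipoproteins had 4 of 12, both without AhR and with AhR and H3K27ac. APOB, the structural protein of VLDL, had 3 against 4, all 3 of merge number 3, as at chr2:21012657-21012876 inside the gene. Acute phase genes had 5 of 19 without AhR, each with 1 peak, against 11 with AhR and H3K27ac. LBP, the lipopolysaccharide binding protein, had 1 inside the gene at chr20:38358675-38358907 and none with both AhR and H3K27ac, though 2 with AhR only. Coagulation and complement genes had 10 of 28, against 14. PLG, plasminogen, had 2 against 2, and C8A, a complement subunit, 1 against 6.

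Among genes of xenobiotic and vitamin handling and of the cell cycle, the P450 and riboflavin lists lay below the 20.3% of all genes. The AhR targets and, barely, the cell cycle genes (21.4%) lay above all genes at 50 kb and not at 10 kb. Of 21 cytochrome P450 genes outside the CYP1 family 3 (14.3%) had a peak without AhR, CYP39A1, CYP26A1 and CYP2B6, against 11 with AhR and H3K27ac. Of 15 AhR targets 4 (26.7%) had one, against 9. In a 10 kb window 1 of the 15 did, beside 3197 of all 19974 genes. SLC7A5, an amino acid transporter gene, had 3 against 8, and CYP1B1 had 1, of merge number 3, at chr2:38109819-38110060 and 33668 bp from the gene, against none. Riboflavin handling had 1 of 9, ENPP1, a membrane pyrophosphatase, with 2 against 8. Cell cycle genes had 3 of 14, with CDKN1A, the p21 inhibitor, at 3 against 6. In a 10 kb window 1 of the 14 had one. In each of these 4 lists, as over all genes, fewer genes had a peak without AhR than one with AhR and H3K27ac.

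Markers of other cells in which C/EBPα acts, or which liver samples hold, were above the 20.3% of all genes in 3 of 5 lists and at 20.0% in the other 2. Myeloid markers had 3 of 12 genes with a peak without AhR and 3 with AhR and H3K27ac. LYZ, lysozyme, had 4 against 2, and CSF3R, the G-CSF receptor, and ITGAM, an integrin, had 1 each. Adipocyte markers had 2 of 10, LEP and CIDEA with 1 each. Cholangiocyte markers had 3 of 10, among them ANXA4 with 3 and PKHD1 with 2. Endothelial markers had 3 of 10, with PECAM1 at 3 against 9, and stellate cell markers had 2 of 10, with PDGFRB at 3 against 2. HepG2 is 1 cell line, so these peaks lie near genes of other cells and do not show such cells. As a share of acetylated C/EBPα peaks, peaks without AhR made up 54.5% at myeloid markers (6 beside 5), 50.0% at the CEBP family (8 beside 8) and 44.4% at stellate cell markers (4 beside 5), from 18.2% to 35.3% in the other lists, and 23.7% over all. Within 1 kb of the gene body, 12 of the 18 list counts moved by over 1.5 times. These counts are small, and the lists were chosen with earlier results of these data known.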

How the data were processed

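ChIP-seq peak lists of HepG2 were analysed for AhR, C/EBPα and H3K27ac. The authors deposited positions only, with a name, chromosome, start, end and sign in 5 columns and no value per library, so 0 columns of per-sample values were used or left aside. Per the submitters' processing notes, the tools were Bowtie2 and HOMER and the build hg38, with no version given, and the caller settings are not known here. Peaks overlapped at 1 bp or more. Genes came from RefSeq GRCh38.p14 (19974 protein-coding genes, chromosomes 1 to 22 and X), assigned by the nearest gene body within 50 kb. Starts came from the RefSeq promoter table (15813 of these genes have one), which also limited motif counts to promoter windows, in place of the planned 200 bp round each peak. Wilson intervals are at 95%.

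The naming rule took the 12 genes with the most peaks of the class, the 8 of up to 50 kb, the 8 without an AhR peak, the leading gene of each list, CEBPA, CEBPB, AHR and CYP1A1, and 1 region per list by merge number. Some genes that the rule names are not reported here. The text also names genes picked with their values in view. The class and the 18 lists were chosen with earlier results of these data known. In tests on 604 simulated peaks, 5 interval routines matched a direct count. Alternatives changed the overlap rule, the H3K27ac list, the merge number, the AhR margin, the distance from genes and the gene window. Scripts ran in Python 3.11.15 with pandas 2.3.3, NumPy 2.4.6 and SciPy 1.17.1, and plots were drawn in Matplotlib 3.10.9.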

Additional observations from a re-analysis of the deposited data

How the results depend on the processing

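Values outside their main counting interval are given by setting; medians are in bp. When overlaps had to cover 50% of the shorter peak, the class was 10.8% of all C/EBPα peaks, 56.8% of it was merged, 5.71% of its H3K27ac regions touched an AhR peak, the median distance to AhR was 4577 and to the next member 58136. With centres within 500 bp, it was 22.3% of C/EBPα peaks with H3K27ac, 53.0% merged, 78.3% in the inhibitor list, with medians of 285 for region width, 6073 to AhR and 5358 to the next C/EBPα centre. With the inhibitor list in the rule, it was 10.6% of all and 23.1% of acetylated peaks, 49.1% inside genes and by construction 100.0% in that list, with medians of 292 for region width, 4377 to AhR and 4471 to the next C/EBPα centre. The union of both H3K27ac lists gave 11.9% of all.

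With merged peaks only in all lists, the share without AhR was larger, at 22.9% of all and 42.15% of acetylated C/EBPα peaks. This setting also drops AhR peaks of merge number 1, so C/EBPα peaks that overlap only those can enter the class by construction. The class then held 8570 peaks, against 4004 merged peaks in the main setting. By construction 100.0% were merged, 1.54% of regions touched AhR and 92.0% were in the inhibitor list. Medians were then 238 for peak width, 293 for region width, 14601 to AhR, 8676 to the next C/EBPα centre and 43136 to the next member. With no AhR peak within 1 kb, the class was 8.56% of all and 18.7% of acetylated peaks, 0.0% of regions touched AhR, 85.0% were in the inhibitor list, 24.6% of listed genes had a member, and medians were 8902 to AhR, 7318 to the next C/EBPα centre and 80658 to the next member. More than 3 kb from every gene end, it was 12.7% of all, 0.434% lay near a start, and medians were 5350 and 57982 to the next C/EBPα centre and member. More than 3 kb from every protein-coding start, a setting chosen after seeing the data, gave 12.95% of all and a median of 5220 to the next C/EBPα centre.

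Listed genes with a member fell to 23.9% in a 10 kb window and 16.3% in a 1 kb window. Over all 19974 genes the number with a member fell as well, from 4046 to 3197 and 2487. In the 10 kb window the counts that moved were apolipoproteins 2, acute phase 3, AhR targets 1, cell cycle 1 and adipocyte markers 1. The class with AhR was not recomputed, so directions between classes were not checked. Leaving out chromosome Y, also chosen after seeing the data, moved none of these values. In the 1 kb window 12 of the 18 list counts moved by over 1.5 times, with the CEBP family, cell cycle and adipocyte lists at 0, and in the other settings at most 5. No paired analysis was possible because the lists hold no values per library, and for the same reason no replicate was left out. Motif counts over whole peaks were not run, as no genome was used here.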

Other observations

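Of the 24 runs of 4 or more C/EBPα peaks without AhR, 2 are described here by their genes, which are on none of the lists and were chosen after their values were seen. Others lay at HSPA12B, ATP6V1C2, TMEM114, PARN and PEDS1 or had no gene assigned. CIITA, the master coactivator of MHC class II genes, had 5 peaks of the class, none with AhR and H3K27ac, and 2 AhR peaks, and 4 of the 5 formed a run inside the gene at chr16:10915879-10922631. NOD2, an intracellular sensor of bacterial cell walls, had 4 inside the gene in a run at chr16:50714497-50721882, none with AhR and H3K27ac, and 1 AhR peak.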
